A study of Homo sapiens with 9 samples.

Results

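The STAT transcription factors measured here are STAT2, STAT3, STAT4, STAT5A, STAT5B and STAT6, taken as the genes that carry these symbols, and they make up 6 of the 60656 genes counted. RIVA cells, an established human line of the ABC type of diffuse large B-cell lymphoma (ABC-DLBCL), were studied by RNA-seq in 9 libraries, 3 for each of 3 groups. Cells of every group were transduced with a lentiviral tet-on vector and received doxycycline for 24 h, and the groups differ in the insert. The vector group carried no insert, the S136X group carried a BCL10 truncation and the R58Q group carried a BCL10 missense mutant. The cells also have their own BCL10, which the labels give as wild type for the vector group, so both mutants were overexpressed in cells that retained an endogenous copy. The dose is given as 200 ng/mL in the treatment protocol but in ng/µL in the sample characteristics. All 9 libraries come from this 1 line, which the study describes as BCL6-rearranged and NOTCH2-mutant. BCL10 itself is an adaptor that joins CARD scaffolds and MALT1 downstream of the B-cell receptor.

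STAT proteins wait in the cytoplasm until a cytokine or interferon receptor brings Janus kinases together, which phosphorylate first the receptor and then a tyrosine near the STAT C terminus. Paired through their SH2 domains, the phosphorylated STATs enter the nucleus and bind short palindromic sites known as GAS elements, or, in the case of STAT2 with IRF9 in the complex ISGF3, the interferon response element ISRE. SOCS proteins, PIAS proteins and phosphatases then switch the signal off. STAT3 activity downstream of autocrine IL-6 and IL-10 is a known trait of ABC-DLBCL. RNA-seq counts the transcripts of these genes and does not measure phosphorylation, dimerization or DNA binding.

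Total counts per library ranged from 28047713 to 33122267, with a median of 32185418. BCL10 counts, which sum the endogenous transcript and the construct, lay between 885 and 1268 with the vector, between 9838 and 14293 with S136X and between 10117 and 10596 with R58Q, so every mutant library lay above every vector library. The 6 B-cell markers summed to between 2345 and 3064 CPM (counts scaled to library size with TMM factors) and the 6 T-cell markers to between 5.49 and 15.03 CPM, while 4 NK-cell and 5 myeloid markers each summed to at most 0.589 CPM per library. In the deposited table the R58Q columns bear a later date than all others, so that date and R58Q construct cannot be told apart in any comparison that uses them. In bulk RNA a lower share of expressing cells and less RNA per cell cannot be told apart either.

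STAT5A changed most among the 5 genes with enough counts to test. It rose 1.87-fold in S136X cells and 3.51-fold in R58Q cells against vector. STAT3 and STAT5B rose by less than 1.5-fold in R58Q cells, STAT6 and STAT2 did not pass the test against vector in either mutant (STAT2 passed in R58Q under other settings given with its values), and STAT4 was at the limit of detection throughout. Counts were compared with edgeR's quasi-likelihood test, which was fitted over all genes of each pair of groups with Benjamini-Hochberg adjustment. Calls required an adjusted p under 0.05 together with a change of 1.5-fold or more. A gene is said to rise or fall where its adjusted p was under 0.05, and changes under 1.5-fold are marked as such.

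STAT5B, STAT5A and STAT3 lie side by side on chromosome 17 (GRCh38, positions as deposited). STAT5B occupies 42199177 to 42276707 on the minus strand, STAT5A follows at 42287547 to 42311943 on the plus strand after a gap of 10839 bases, and STAT3 lies at 42313324 to 42388482 on the minus strand only 1380 bases further on. STAT2 is on chromosome 12 at 56341597 to 56360167, STAT6 on the same chromosome at 57095408 to 57132139, both on the minus strand, and STAT4 on chromosome 2 at 191029576 to 191151596, also on the minus strand. The coding part of the longest coding transcript (GENCODE release 29) holds 2553 bases for STAT2, 2310 for STAT3, 2244 for STAT4, 2382 for STAT5A, 2361 for STAT5B and 2541 for STAT6.

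STAT5A and STAT5B are near-copies of each other, and this bears on how their reads could be assigned. Aligned end to end, their coding sequences were identical at 2087 of 2345 ungapped positions, or 89.0%. Of the 31-base words of the longest coding STAT5A transcript, 16.1% also occur in STAT5B, and 8.83% of its 100-base words do. For STAT5B the shares found in STAT5A are 13.5% and 7.41%. The longest identical stretch runs over 429 bases. It lies in exons 7 to 10 of STAT5A (chromosome 17, 42299764 to 42301277) and in exons 6 to 9 of STAT5B (42218328 to 42219829), inside the coding sequence of both, and its first 120 bases are printed here, 5′ to 3′ along the transcripts and in lower case throughout, because a read that falls wholly within it fits both genes equally well:
STAT5A and STAT5B, start of the identical stretch: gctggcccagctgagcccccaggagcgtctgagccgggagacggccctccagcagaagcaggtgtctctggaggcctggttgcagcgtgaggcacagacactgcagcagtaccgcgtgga
How the authors' counting treated reads that fit more than 1 gene is not given in the sources used here, and the part of shared reads in the STAT5B values was not tested. No 31-base word of STAT2 or STAT4 occurs in another gene, 0.45% of those of STAT6 do and 3.33% of those of STAT3 do, and at 100 bases none of STAT2, STAT3, STAT4 or STAT6 do. STAT6 overlaps 2 genes of the opposite strand, NAB2 by 69 bases and LRP1 by 3657 bases, and whether the counting used strand is not given in the sources used here. LRP1 had at most 329 counts per library, against at least 6647 for STAT6.

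The 250 bases before each RefSeq start of the 6 genes (GRCh38.p14) were searched on both strands for the GAS element (TTCNNNGAA), the ISRE (TTTC, any 2 bases, TTTC) and the NF-kB consensus. Of 35116 such promoters, 6.57% hold a GAS match, 3.02% an ISRE match and 5.21% an NF-kB match. The only match in the windows of these 6 genes was an NF-kB one, GGGGGACCCC, at chromosome 17, 42288279 to 42288288. It lies inside the third STAT5A window, 219 to 210 bases before the RefSeq start that this window precedes. That window lies wholly within GENCODE exons of STAT5A. The window that ends just before the deposited STAT5A gene holds none of the 3 motifs and no STAT5A exon. It is printed on the plus strand, in lower case with no match to mark, because STAT5A carries the largest change of the family:
STAT5A, chr17:42287297-42287546: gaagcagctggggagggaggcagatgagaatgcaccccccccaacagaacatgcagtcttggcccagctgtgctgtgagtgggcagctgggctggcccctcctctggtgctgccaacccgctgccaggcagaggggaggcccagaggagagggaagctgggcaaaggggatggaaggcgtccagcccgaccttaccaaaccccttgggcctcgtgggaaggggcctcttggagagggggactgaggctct
A match is a description of letters and not a measured site.

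**Figure D1:**
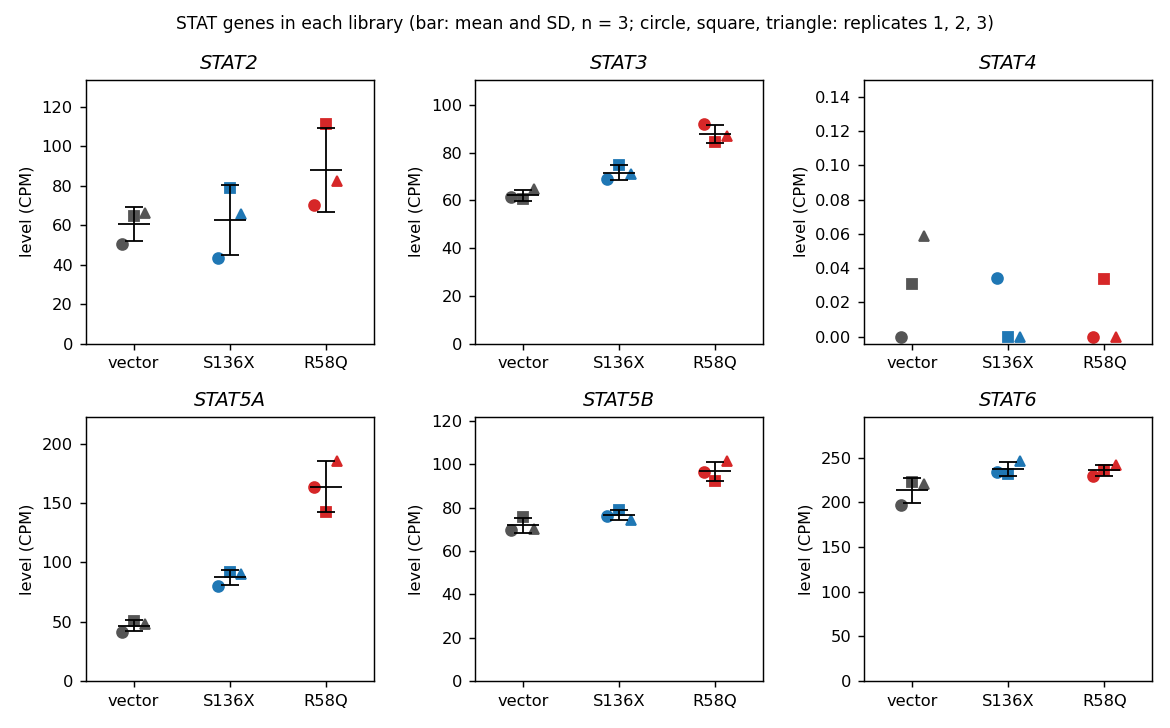
Level of each STAT gene in every library, in CPM on the vertical axis (own scale per gene, starting at 0), with circle, square and triangle for replicates 1, 2 and 3 and the bar showing mean and SD over 3 libraries. The STAT5A panel shows 3 separate groups, from 41.1 to 50.6 CPM in vector, 80.2 to 91.6 in S136X and 142 to 185 in R58Q, whereas STAT4, drawn without a bar, stays at or under 0.0589 CPM.

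STAT5A, which together with STAT5B conveys signals of IL-2 family cytokines and supports lymphocyte survival, stood at 41.1, 50.6 and 48.2 CPM in vector cells (replicates 1 to 3), at 80.2, 91.6 and 90.3 CPM in S136X cells and at 164, 142 and 185 CPM in R58Q cells. The 3 groups did not overlap, with S136X between vector and R58Q. The log2 fold change against vector was 0.91 in S136X (standard error 0.0911, 95% interval 0.70 to 1.11, edgeR adjusted p = 0.000897, n = 3 each) and 1.81 in R58Q (standard error 0.113, 95% interval 1.55 to 2.07, edgeR adjusted p = 5.58e-05, n = 3 each). Both calls held in all 6 fits that each left out 1 library. In the direct comparison, R58Q exceeded S136X by 0.90 on the log2 scale (standard error 0.106, 95% interval 0.65 to 1.14, edgeR adjusted p = 0.0154), that is 1.86-fold. This last call was lost without S136X replicate 1, 2 or 3 and without R58Q replicate 3, where the adjusted p reached 0.14 at the most while the log2 difference stayed between 0.80 and 0.94. Over all genes, the calls of that comparison fell from 66 to 28, 17, 5 and 17 in these 4 fits.

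**Figure D2:**
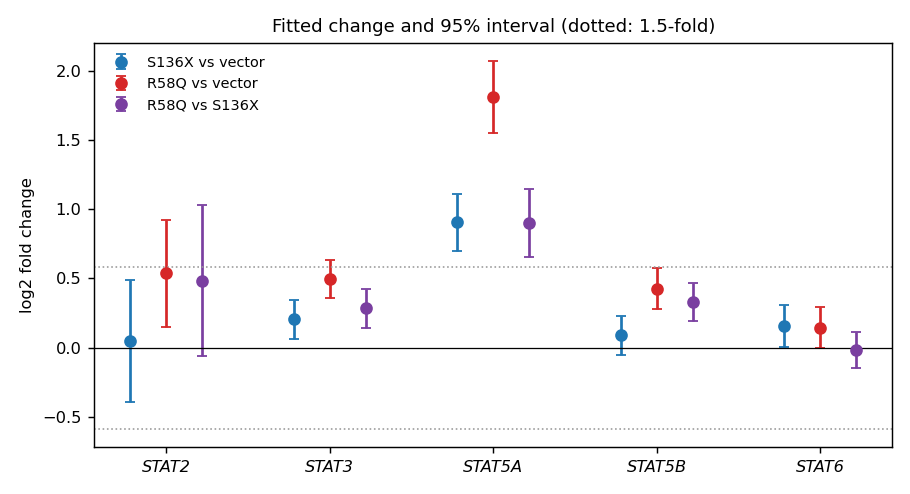
Fitted log2 fold change (vertical axis) of the 5 tested STAT genes in the 3 pairwise comparisons, with 95% intervals from edgeR and dotted lines at 1.5-fold. For STAT5A the intervals of all 3 comparisons lie above the 1.5-fold line, from 0.65 upward, and no other gene has an interval that does.

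Of the 5 members tested, 1 (STAT5A) was called in S136X cells, against 3.87% of all 15530 genes tested, and it alone was called in R58Q cells, against 7.63% of 15435. In the direct comparison of the mutants STAT5A was again the 1 member called, against 0.434% of 15195 genes. At any fold, 1, 3 and 1 members passed in the 3 comparisons, where 10.1%, 21% and 0.533% of all genes did. The libraries of the 2 groups did not overlap for 3 members in S136X against vector, for all 5 tested members in R58Q against vector and for 3 in R58Q against S136X, beside 31.3%, 40.3% and 17% of all genes. All of these members were higher in the first-named group, where 16%, 21.1% and 9.45% of all genes stood clear in that direction. The median log2 fold change of the 5 members was 0.15, 0.50 and 0.33, where that of all genes tested was -0.02, -0.03 and 0.0028. The 2 comparisons with vector share the vector libraries.

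Libraries of equal replicate number deviated together from their group means (correlations of 0.172 to 0.677, 9 pairs). The numbers were therefore taken to pair the libraries, which the labels do not state. The block was thus chosen from the same counts that it then tested, so its adjusted p-values are an alternative only. The R58Q columns bear a later date than all others, so every block result with R58Q pairs libraries across dates. Members differed here. STAT2 replicate 1 lay below its group mean in all 3 groups. In vector, S136X and R58Q, STAT5A replicate 2 deviated by 0.123, 0.0706 and -0.195 on the log2 scale, and STAT3 replicate 1 by -0.0211, -0.0539 and 0.0702. When replicate number entered the fit as a block, 2, 4 and 4 members passed at any fold in the 3 comparisons, against 24.7%, 35.2% and 14.6% of all genes. Those added were STAT3 in S136X against vector (edgeR adjusted p = 0.0245, without the block 0.0719), STAT2 in R58Q against vector (0.00152, without the block 0.0551), and STAT2, STAT3 and STAT5B in R58Q against S136X (5.4e-06, 0.000616 and 9.68e-05, without the block 0.522, 0.109 and 0.0783). At 1.5-fold STAT5A was the 1 member called with the block too, in each of the 3 comparisons.

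STAT5B, the closest relative of STAT5A and the transducer of growth hormone signals, had 69.7, 75.8 and 69.9 CPM in the vector libraries, 76.3, 78.8 and 74.1 CPM in the S136X libraries and 96.2, 92.3 and 101 CPM in the R58Q libraries, each in the order of replicates 1 to 3. R58Q stood above both other groups, and vector and S136X overlapped. It rose 1.34-fold in R58Q (log2 fold change 0.43, standard error 0.0636, edgeR adjusted p = 0.00341). In S136X the value was 0.09 (95% interval -0.05 to 0.23, edgeR adjusted p = 0.391). In vector cells every library had fewer STAT5A than STAT5B reads, with 0.589, 0.667 and 0.689 STAT5A counts per STAT5B count in replicates 1 to 3. In the mutant libraries STAT5A was in excess, with 1.05, 1.16 and 1.22 in S136X and 1.70, 1.54 and 1.83 in R58Q. The mean log2 ratio was -0.63 ± 0.119 with the vector, 0.19 ± 0.108 with S136X and 0.75 ± 0.123 with R58Q (SD, 3 libraries per mean). The exact permutation test (two-sided) gave p = 0.1 for each of the 3 pairs of groups, which is the smallest value that 3 against 3 libraries allow, so this test cannot pass 0.05.

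**Figure D3:**
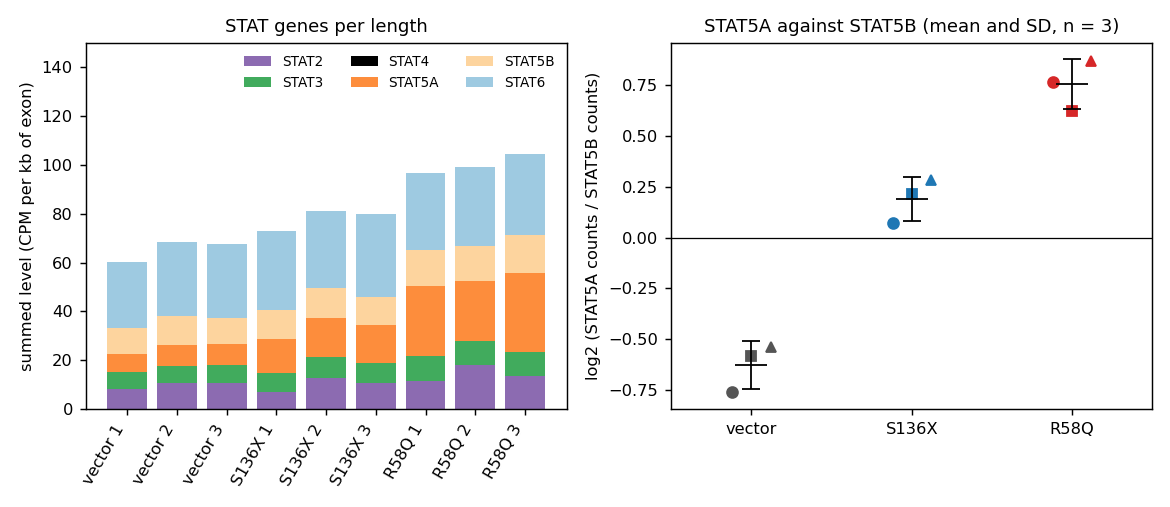
Left, summed level of the 6 STAT genes in each library as CPM per kilobase of exon, stacked by gene. Right, log2 of STAT5A counts over STAT5B counts per library, with mean and SD over 3 libraries. The left bars reach 60.2 to 68.5 in vector, 72.8 to 81.3 in S136X and 96.8 to 104 in R58Q, and the right panel crosses 0 between vector and the mutants.

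Levels of different genes were compared per kilobase of the joined exons of all GENCODE transcripts. In vector cells STAT6 came first at 29.3 ± 1.93 CPM per kilobase, followed by STAT5B at 11.1 ± 0.536, STAT2 at 9.90 ± 1.42, STAT5A at 8.10 ± 0.86 and STAT3 at 7.05 ± 0.27 (SD, n = 3 each), with STAT4 last. The ranges of STAT5B and STAT2 overlapped, as did those of STAT2 and STAT5A and those of STAT5A and STAT3, so of the 5 genes tested only STAT6 stood clear of the next, and STAT4 lay far below STAT3. In R58Q cells STAT6 stood at 32.4 ± 0.855 and STAT5A came second at 28.5 ± 3.75, and the 2 ranges overlapped. STAT5B at 14.99 ± 0.713, STAT2 at 14.4 ± 3.47 and STAT3 at 9.96 ± 0.447 followed. STAT5B and STAT2 could not be separated there either. As a share of the summed level of the 6 genes, STAT5A made up 12.4% ± 0.489 with the vector, 19.5% ± 0.278 with S136X and 28.4% ± 3.11 with R58Q (SD over 3 libraries), and STAT6 made up 44.7% ± 0.2, 41.8% ± 2.55 and 32.3% ± 0.494. The order depends on the length used. With the length of the longest coding transcript, STAT5A was the lowest of the 5 in vector cells (10.8 ± 1.15 CPM per kilobase, STAT6 52.9 ± 3.49) and still second in R58Q cells (38.1 ± 5.02, STAT6 58.5 ± 1.55).

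STAT3, the transducer of IL-6 and IL-10, had 61.2, 60.4 and 64.8 CPM in vector, 69.0, 74.9 and 71.0 CPM in S136X and 92.1, 84.4 and 86.9 CPM in R58Q, in the order of replicates 1 to 3. The 3 groups did not overlap and the order was the one seen for STAT5A, over a narrower range. STAT3 rose 1.41-fold in R58Q (log2 fold change 0.50, standard error 0.0608, 95% interval 0.36 to 0.64, edgeR adjusted p = 0.00155), a result that held in all 6 fits leaving out 1 library. In S136X the log2 fold change was 0.21 (standard error 0.0624, edgeR adjusted p = 0.0719), and between the mutants it was 0.28 (edgeR adjusted p = 0.109).

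STAT2, which joins IRF9 in ISGF3 and carries the type I interferon signal, had 50.5, 64.8 and 66.2 CPM in vector, 43.2, 78.5 and 65.6 CPM in S136X and 70.1, 111 and 82.2 CPM in R58Q, in the order of replicates 1 to 3. The S136X libraries spread around the vector range on both sides, and the R58Q libraries all lay above it. The log2 fold change was 0.05 in S136X (95% interval -0.40 to 0.49, edgeR adjusted p = 0.904) and 0.54 in R58Q (95% interval 0.15 to 0.92, edgeR adjusted p = 0.0551). Replicate 1 was the lowest STAT2 library of each of the 3 groups. Without R58Q replicate 1, STAT2 was called in R58Q as a second member, with a log2 fold change of 0.69 (edgeR adjusted p = 0.0108). It also passed in R58Q, below 1.5-fold, with the block (0.00152), with DESeq2 (adjusted p = 0.00571), with DESeq2's size factors in edgeR (0.0493) and with no filter (0.000436).

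A list of 34 targets of ISGF3 was read beside STAT2, and 33 of them could be tested. In S136X, 8 were called higher and none lower, and in R58Q 29 were called higher and none lower, with medians of 1.25 and 1.84 on the log2 scale. Of all genes tested, 2.05% and 4.09% were called higher. With the replicate block the numbers called higher were 25 and 30, where 6.53% and 10.7% of all genes were called in either direction. The list was chosen with earlier results of these data known, so these counts describe it and test nothing. Without vector replicate 2 all 8 calls in S136X and 16 of the 29 in R58Q were lost, while the calls over all genes fell from 601 to 279 and from 1178 to 719. The largest changes were those of IFI44L (3.50 and 4.14), XAF1 (3.19 and 4.12), IFIT1 (3.02 and 3.94), CMPK2 (2.99 and 3.76), HERC5 (2.92 and 3.50) and IFI44 (2.91 and 3.36), all interferon-induced genes. In R58Q all 6 were called (edgeR adjusted p between 0.0124 and 0.044), and in S136X only IFI44L was (edgeR adjusted p = 0.0473). Without vector replicate 2 none of the 6 passed in R58Q (IFI44L edgeR adjusted p = 0.0528), and IFI44L passed in S136X in 1 of the 6 fits that left out 1 library, the one without S136X replicate 1. With the block all 6 were called in S136X (edgeR adjusted p between 4.94e-05 and 0.00441). IRF9, the DNA-binding partner of STAT2, had values of 0.41 and 0.79 (edgeR adjusted p = 0.318 and 0.0536, with the block 0.0318 and 0.00354). The median of the 33 genes per library, set against the mean of the vector group on the log2 scale, was -0.42, 0.15 and 0.30 for replicates 1 to 3 of the vector, 0.15, 1.97 and 1.17 in S136X and 0.93, 2.42 and 1.75 in R58Q. The order of the libraries within each group was the same as for STAT2, with replicate 1 lowest in all 3 groups and replicate 2 highest in both mutants.

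STAT6, the transducer of IL-4 and IL-13, was the most abundant member. It had 197, 222 and 221 CPM in vector, 234, 232 and 246 CPM in S136X and 229.5, 237 and 242 CPM in R58Q, in the order of replicates 1 to 3. All mutant libraries lay above all vector libraries, by little. The log2 fold change was 0.15 in S136X (95% interval 0.0022 to 0.31, edgeR adjusted p = 0.182) and 0.14 in R58Q (95% interval -0.0065 to 0.29, edgeR adjusted p = 0.154), and with the block the adjusted p was 0.0508 and 0.0504. Between the mutants the log2 difference was -0.02 with a 95% interval of -0.15 to 0.11, an interval that excludes a 1.5-fold difference in either direction.

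STAT4, which carries IL-12 signals in T and NK cells, had 0, 1 and 2 counts in vector cells, 1, 0 and 0 in S136X cells and 0, 1 and 0 in R58Q cells, and was not tested. A count of 0 allows up to 3 counts, or about 0.0883 to 0.105 CPM at these depths, which covers counting error only, so a difference in STAT4 was not detectable. Of 7 STAT4 targets listed, 2 had enough counts to be tested, TBX21, a T-cell transcription factor gene, and the protease gene FURIN, and neither was called. FURIN fell by less than 1.5-fold in R58Q (log2 fold change -0.31, edgeR adjusted p = 0.0299), a result lost in 5 of the 6 fits leaving out 1 library (up to 0.105), all but the one without R58Q replicate 1.

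**Figure D4:**
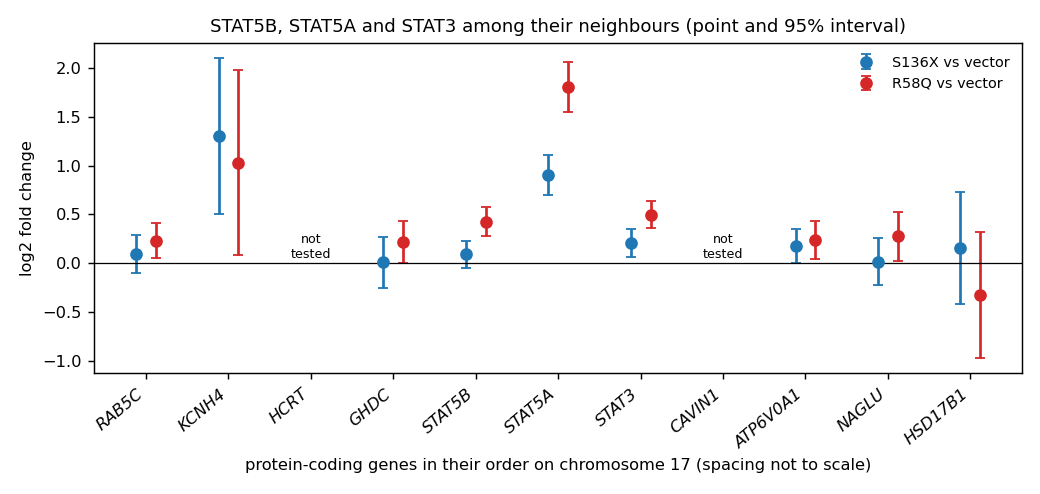
Fitted log2 fold change (vertical axis) of STAT5B, STAT5A and STAT3 and of the 4 protein-coding genes on either side, in chromosomal order without scale, for each mutant against vector with 95% intervals. In R58Q STAT5A is the highest of the genes shown at 1.81, in S136X KCNH4 at 1.31 with a wide interval lies above STAT5A at 0.91, and HCRT and CAVIN1 could not be tested against vector.

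The protein-coding genes around the chromosome 17 cluster were then compared, a choice made after the member values were known. RAB5C, GHDC, ATP6V0A1, NAGLU and HSD17B1 passed in neither mutant, with log2 fold changes between 0.01 and 0.18 in S136X and between -0.33 and 0.28 in R58Q. All R58Q libraries of RAB5C, GHDC and ATP6V0A1 still lay above all vector libraries, as did all S136X libraries of ATP6V0A1. Of all genes, 21.1% did so in R58Q and 16% in S136X. KCNH4, a potassium channel gene with 7 to 28 counts per library, passed narrowly in S136X, where it was called (log2 fold change 1.31, edgeR adjusted p = 0.0499). Its value in R58Q was 1.03 (edgeR adjusted p = 0.111, with the block 0.0439). HCRT and CAVIN1 had too few counts against vector. STAT3 and STAT5B, which flank STAT5A directly, both passed in R58Q, and STAT3 passed in S136X with the block (edgeR adjusted p = 0.0245) but not without it (0.0719).

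**Figure D5:**
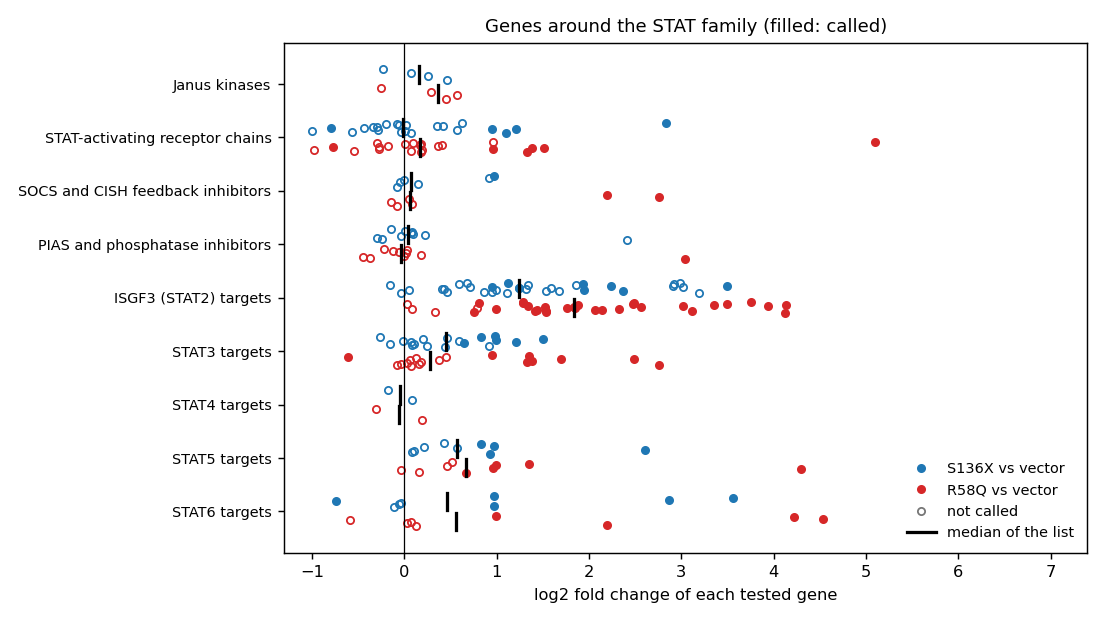
Fitted log2 fold change (horizontal axis) of every tested gene in 9 lists around the STAT family, in S136X (blue) and R58Q (red) against vector. Filled points were called, open points were not, and the black bars are list medians. The interferon target list lies furthest to the right, with medians of 1.25 and 1.84, while the medians of the kinases and inhibitors stay between -0.03 and 0.37.

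Genes upstream and downstream of the STATs were read from 9 hand-written lists holding 126 genes, of which 102 were tested against vector. In S136X, 23 were called higher and 2 lower, in R58Q 47 higher and 2 lower, with medians of 0.43 and 0.49 on the log2 scale. Of all genes tested, 2.05% were called higher and 1.82% lower in S136X, and 4.09% and 3.54% in R58Q. The lists were chosen with earlier results of these data known, so such counts and shares, here and for every single list, describe the lists and test nothing. The block raised the S136X numbers to 44 and 4 and gave 49 and 4 in R58Q, where 6.53% and 10.7% of all genes were called. Without vector replicate 2 the 25 calls in S136X became 10 and the 49 in R58Q became 30, without S136X replicate 3 the 25 became 16, and without S136X replicate 1 they became 48. Over all genes, the calls without vector replicate 2 went from 601 to 279 in S136X and from 1178 to 719 in R58Q. Without S136X replicate 3 and without S136X replicate 1 the 601 became 349 and 705. Of the calls, 10 of 25 and 29 of 49 were kept in every fit that left out 1 library. Some genes stand in more than 1 list, and a place in a list does not show which factor acted on the gene.

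None of the 4 Janus kinases was called. At less than 1.5-fold, TYK2, a kinase of the interferon and IL-10 receptors, rose in S136X (log2 fold change 0.46, edgeR adjusted p = 0.0419) and in R58Q (0.45, edgeR adjusted p = 0.0187), results lost in 4 and 2 of the 6 fits leaving out 1 library (edgeR adjusted p up to 0.159 and 0.0754), vector replicate 2 among them. JAK3, the partner of the common gamma chain, rose in R58Q (0.57, edgeR adjusted p = 0.0124), except without vector replicate 2 (edgeR adjusted p = 0.0543). JAK1 fell in R58Q (-0.25, edgeR adjusted p = 0.0307), which was lost without vector replicate 2 or 3 or R58Q replicate 1 or 3 (up to 0.12), and JAK2 passed in neither mutant. With the block JAK1 and JAK3 also passed in S136X (edgeR adjusted p = 0.00673 and 0.0201) and JAK2 passed in R58Q (0.0243).

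Of 31 receptor chains that signal through STATs, 22 were tested, and 4 were called higher and 1 lower in S136X, 5 higher and 1 lower in R58Q. With the block the numbers were 5 and 3 in S136X and 6 and 2 in R58Q. Those added were CSF2RB, the shared chain of the IL-3, IL-5 and GM-CSF receptors, higher in both (edgeR adjusted p = 0.00338 and 7.25e-05, without the block 0.411 and 0.157), IL3RA, lower in both (0.0298 and 0.0199, without the block 0.136 and 0.0976), and IL5RA, lower in S136X (0.0415, without the block 0.268). IL21R, the receptor for a cytokine that activates STAT3 in B cells, rose from 52.8 ± 5.14 CPM with the vector to 122 ± 11.2 with S136X and 139 ± 15.3 with R58Q (SD over 3 libraries), with log2 fold changes of 1.21 and 1.39 (edgeR adjusted p = 0.000265 and 0.000109). IL6R, the ligand-binding chain of the IL-6 receptor, rose as well (1.11 and 1.33, edgeR adjusted p = 0.00921 and 0.00644), although its call in S136X was lost without vector replicate 2 (edgeR adjusted p = 0.0536). IL15RA rose by 0.96 and 1.51 (edgeR adjusted p = 0.00716 and 0.000342). CNTFR, a chain for ciliary neurotrophic factor, had 0 to 9 counts in vector, 20 to 31 in S136X and 63 to 198 in R58Q, and was called in both, in S136X not without vector replicate 1 or 2 or S136X replicate 3 (edgeR adjusted p up to 0.0801). IL2RA, the high-affinity chain of the IL-2 receptor and itself a known STAT5 target, rose in R58Q (0.96, edgeR adjusted p = 0.00669) and by less than 1.5-fold in S136X (0.57, edgeR adjusted p = 0.0408), the latter holding in the fit without vector replicate 1 but in none of the other 5 (up to 0.0831). IL13RA1, a chain that activates STAT6, fell in both mutants (-0.79 and -0.77, edgeR adjusted p = 0.00843 and 0.00249). At any fold 7 chains passed higher and 1 lower in S136X, and 6 higher and 1 lower in R58Q. Among them IL10RA, a chain of the IL-10 receptor, rose by less than 1.5-fold in both mutants. It passed in all 6 fits leaving out 1 library, with log2 fold changes of 0.39 to 0.47 in S136X and 0.40 to 0.43 in R58Q.

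Of the 8 SOCS family inhibitors, 6 were tested and those that moved were SOCS1 and SOCS3, which block the kinases. SOCS1 rose from 1.83 ± 0.161 CPM with the vector to 3.58 ± 0.997 with S136X and 8.41 ± 1.01 with R58Q (SD over 3 libraries), with log2 fold changes of 0.97 (edgeR adjusted p = 0.0307, lost in 5 of the 6 fits leaving out 1 library, in which it reached 0.131) and 2.19 (edgeR adjusted p = 0.000109). SOCS3 had 1.74 ± 0.483, 3.30 ± 1.18 and 11.8 ± 6.46 CPM, with values of 0.92 in S136X (edgeR adjusted p = 0.0854, with the block 0.00464) and 2.76 in R58Q (edgeR adjusted p = 0.00306). CISH and SOCS2, feedback genes that STAT5 is known to induce, had at most 8 and 5 counts in any library and were not tested.

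None of 4 PIAS genes and 5 phosphatase genes was called. USP18, listed with them, encodes an ISG15 protease that also blocks the interferon receptor, and it was called in R58Q (log2 fold change 3.05, edgeR adjusted p = 0.0101, without vector replicate 2 0.0542). At less than 1.5-fold, the phosphatase genes PTPN6 and PTPRC and the gene PIAS1 fell in R58Q (-0.44, -0.37 and -0.21, edgeR adjusted p = 0.0177, 0.00569 and 0.0283). PTPN6 also fell in S136X (-0.30, edgeR adjusted p = 0.0372). With 1 library left out, PTPRC passed in all 6 fits, PIAS1 in none (edgeR adjusted p up to 0.122) and PTPN6 in 3 (R58Q, up to 0.0658) and 1 (S136X, up to 0.132), lost without vector replicate 2 or 3 in both. With the block USP18 was also called in S136X (0.00114) and PTPRC also fell there (0.00663), and the phosphatase gene PTPN11 rose by less than 1.5-fold in both mutants (log2 fold changes 0.23 and 0.19 with edgeR adjusted p = 0.00467 and 0.021, without the block 0.0848 and 0.103).

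Targets of STAT5 were read beside STAT5A, and 9 of 14 could be tested. The feedback genes CISH and SOCS2, with at most 8 and 5 counts in any library, were among those not tested. In S136X, 4 were called higher and none lower, in R58Q 5 higher and none lower, with medians of 0.57 and 0.67. Of all genes tested, 2.05% were called higher in S136X and 4.09% in R58Q. LTA, the gene of lymphotoxin alpha, rose by 2.61 and 4.30 on the log2 scale (edgeR adjusted p = 1.75e-06 and 1.22e-05), BCL2L1, which encodes the survival protein BCL-xL and is also listed under STAT3, by 0.83 and 1.35 (edgeR adjusted p = 0.000278 and 4.56e-05), and the repressor gene BCL6, also listed under STAT6, by 0.97 and 0.99 (edgeR adjusted p = 0.00162 and 0.00193). The kinase gene PIM2 rose by 0.93 and 0.67 (edgeR adjusted p = 0.0155 and 0.0255), a call lost without vector replicate 2 in both mutants (edgeR adjusted p = 0.0786 in S136X), and in R58Q also without vector replicate 3 or R58Q replicate 1 or 3 (up to 0.101). IL2RA completed the calls in R58Q. The list does not record whether STAT5 raises or lowers each gene, so these counts give no direction of STAT5 action.

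Of 20 STAT3 targets 18 were tested. In S136X, 6 were called higher and none lower, in R58Q 7 higher and 1 lower, with medians of 0.45 and 0.28. Apart from SOCS3, BCL2L1 and IL21R, those called higher were CEBPD, a C/EBP factor (1.501 and 2.49), the death receptor gene FAS (0.998 and 1.70) and the AP-1 genes BATF (0.99 and 0.95) and JUNB (0.65 and 1.33). In S136X the call of FAS was lost without vector replicate 2 or 3 or S136X replicate 2 or 3 (edgeR adjusted p up to 0.07) and that of JUNB without vector replicate 2 or S136X replicate 2, and BATF lost both of its calls without vector replicate 2 (0.0636 and 0.0588). BCL3, an atypical IkB protein, fell in R58Q (-0.61, edgeR adjusted p = 0.00482), by less than 1.5-fold without vector replicate 1 or R58Q replicate 2 or 3. Of 12 STAT6 targets 8 were tested, with 4 called higher in each mutant and 1, FCER2, lower in S136X. CCL17 and CCL22, chemokines that IL-4 induces through STAT6, rose by 3.56 and 2.87 in S136X and by 4.22 and 4.54 in R58Q, and SOCS1 and BCL6 were the others. FCER2, the gene of the IgE receptor CD23 and a classical STAT6 target, fell by 0.74 on the log2 scale in S136X (edgeR adjusted p = 0.0154) and by 0.58 in R58Q (edgeR adjusted p = 0.0283), the latter just under 1.5-fold and lost in 4 of the 6 fits leaving out 1 library (up to 0.0805), those without a vector library or R58Q replicate 3. The cells carry a BCL6 rearrangement, whose part in the BCL6 values was not tested.

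Between the mutants, 2 of the 103 tested list genes were called, LTA and CCL22, both higher in R58Q, where 0.27% of all genes were called higher and 0.165% lower. With the replicate block 27 were called, all higher in R58Q, 16 of them interferon targets, and 2.94% of all genes were called.

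The genes whose levels followed each member most closely over the 9 libraries were searched among 14962 genes by Pearson's r of log2 CPM, which mostly reflects the 3 group means. For STAT5A they included TRAF1, an adaptor of TNF receptors (r = 0.998), and RIPOR2 (0.994). TRAF1 stood at 67.5 ± 8.52, 161 ± 16.4 and 411 ± 46.7 CPM with the vector, S136X and R58Q (SD over 3 libraries), the same order of the groups as STAT5A over a wider range. For STAT3 they were SLC35C2 (0.986), RHOB (0.98) and LRIG1 (0.98), and for STAT5B MROCKI (0.985), FEM1C (0.981) and RAP2A (0.979). For STAT2 they were CD81 (0.988), CNPY3 (0.973) and COQ10B (0.963), and for STAT6 CNKSR1 (0.977), SLC45A3 (0.976) and AC092384.3 (0.97). None of the genes named here was shared between members.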

How the data were processed

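RNA from 3 libraries each of vector, S136X and R58Q RIVA cells was poly(A)-selected and sequenced (single reads), with 2 runs per library that the authors merged. The authors deposited read counts per gene, together with a signal of normalized counts that was not used here. Their processing notes name cutadapt, STAR, Picard and the build hg38 without versions, and the counting program is not given in the sources used here. Some genes of the table are not reported here. The members and the gene lists were chosen with earlier results of these data known. The named genes were the 6 members, up to 6 called genes of each list by size of change (all genes of lists of 10 or fewer could be named), the 3 genes most like each tested member, and BCL10. Neighbouring genes and IL10RA were added later.

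The count model was edgeR 4.0.16 (R 4.3.3, with limma 3.58.1), fitted pairwise to 6 libraries. Genes passed filterByExpr at a minimum count of 10 and a total of 15, TMM factors scaled the libraries, and quasi-likelihood F tests were adjusted by Benjamini-Hochberg. The standard error is the log2 fold change over the root of F. Levels are CPM with TMM factors over 9 libraries, and likeness used log2 CPM with a prior count of 2. The alternatives were DESeq2 1.42.0, limma-voom, 3 other scalings, 2 other filters, all 9 libraries in one fit, the replicate block, other thresholds and each replicate left out. Chi-square values per degree of freedom between replicates were 7.21 to 23.0, above sampling noise. The study calls them biologic replicates, and p-values measure the spread between these samples. Deviations of libraries with the same number had correlations of 0.172 to 0.677 (9 pairs), so the numbers were taken to pair the libraries, for R58Q across column dates. On simulated counts for S136X against vector, edgeR called 155 of 200 genes changed 2-fold among 15290 genes, and 7 unchanged ones. The simulated libraries were drawn independently, with no deviation shared by replicate number, and the changed genes were taken above a minimum level. These rates therefore need not hold for the real libraries.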

Additional observations from a re-analysis of the deposited data

Results flagged for a closer look

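Some genes differed between the mutants themselves, by the edgeR test of R58Q against S136X. STAT5A was higher in R58Q by 0.898 on the log2 scale (adjusted p = 0.0154), and higher in all 3 R58Q libraries than in all 3 S136X libraries. Of the list genes, LTA was higher by 1.68 (adjusted p = 0.00419), CCL22 by 1.67 (adjusted p = 0.028) and BCL2L1 by 0.512 (adjusted p = 0.0231, under 1.5-fold). Each result was lost when some libraries were left out, that of LTA without S136X replicate 3 (adjusted p = 0.0801), that of CCL22 without S136X replicate 2 or 3 or R58Q replicate 1 or 3 (up to 0.17) and that of BCL2L1 in 5 of 6 fits (up to 0.16), all but the one without R58Q replicate 2. The dates in the column names separate the same groups.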

How the results depend on the processing

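The STAT5A calls against vector held under all alternatives run, with log2 fold changes of 0.85 to 0.92 in S136X and 1.75 to 1.83 in R58Q over 8 other tools, scalings, filters and sample sets. Between the mutants its call held under those 8, but at an adjusted p under 0.01 no member was called. At any fold 3 members passed in R58Q against vector. Leaving out 1 library gave 1 member called in S136X, 1 to 2 in R58Q and 0 to 1 between the mutants. The list genes called in S136X, 25, became 48 with no filter, 48 with the replicate block, 11 at an adjusted p under 0.01 and 10 to 48 with 1 library left out. In R58Q, 49 became 30 at an adjusted p under 0.01 and 30 to 54 with 1 library left out. Between the mutants, 2 became 8 with DESeq2, 8 with no filter, 5 with all 9 libraries in one fit, 27 with the replicate block, 1 at an adjusted p under 0.01 and 0 to 3 with 1 library left out. Over all genes, leaving out 1 library gave 279 to 705 calls in S136X (601 with all libraries), 719 to 1248 in R58Q (1178) and 5 to 63 between the mutants (66). The cause of these changes was not tested. The log2 ratio of STAT5A to STAT5B was higher than with the vector by 0.75 to 0.88 in S136X and 1.31 to 1.45 in R58Q, and by 0.50 to 0.63 between the mutants, with 1 library left out. The sign turned for 2 values that did not pass, that of STAT2 in S136X with total counts only (-0.0047) and with 1 library left out (-0.14 to 0.25), and that of STAT6 between the mutants with 1 library left out (-0.039 to 0.016). STAT3 and STAT5B passed between the mutants with DESeq2 (adjusted p = 0.0322 and 0.00407) and with all 9 libraries in one fit (0.0452 and 0.0252), STAT5B also with no filter (0.0253), and STAT3 passed in S136X with all 9 libraries (0.0494). Among the members the block changed no call beyond those given. Depth limits STAT4, CISH and SOCS2, which could not be tested.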
